A study of Mus musculus with 12 samples.

Results

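The mouse miR-210 hairpin gives rise to 2 mature arms, miR-210-3p and miR-210-5p, and both were chosen by name from a table of 1519 mature miRNA arms; no other arm in the table carried the miR-210 name. The libraries are small RNA libraries of C57BL/6 mouse skin, from animals aged 6-8 weeks, in 4 groups of 3. The control group received 0 mJ/cm2, and the other groups received 90, 180 or 360 mJ/cm2 of ultraviolet B (UVB) from a phototherapy lamp. No genotype, transgene or second agent was given for any group. The sources used here give neither the interval between irradiation and sampling nor whether the replicates came from separate mice, so the p-values measure the spread between libraries, which may be technical.

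A miRNA hairpin is cut by Dicer into a duplex of its 2 arms, of which 1, the guide, is usually retained in Argonaute and represses messages that pair with its seed, while the passenger arm is mostly degraded. miR-210-3p is the guide arm and is known as the miRNA most widely induced by low oxygen, through hypoxia-inducible factors; among its targets are the iron-sulfur scaffold gene Iscu and, in keratinocytes of ischemic wounds, E2f3. Oxygen was not measured in these samples and messenger RNA was not analysed here, so the libraries show the level of each arm and not what set it.

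The mature sequences of RefSeq, on build GRCm38.p6, are shown because the arms have different seeds and were counted separately. Each runs 5′ to 3′ with the seed, bases 2 to 8, in capitals.
mmu-miR-210-3p: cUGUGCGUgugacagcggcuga
mmu-miR-210-5p: aGCCACUGcccaccgcacacug
Both arms were 22 bases long and lay on the minus strand of chromosome 7, the 3p arm at chr7:141221407-141221428 and the 5p arm at chr7:141221445-141221466. None of the 1679 mature mouse miRNAs in the RefSeq table other than the arm itself carried the same bases 2 to 8 (0 matches for either arm), so no other family member was grouped with them. The hairpin, at chr7:141221384-141221493, is given next with both arms in capitals, the 5p arm first.
mmu-mir-210 hairpin: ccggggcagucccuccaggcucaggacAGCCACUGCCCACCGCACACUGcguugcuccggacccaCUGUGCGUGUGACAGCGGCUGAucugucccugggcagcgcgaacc
In its minimum free energy fold, 16 of the 22 bases of the 5p arm paired with the 3p arm across a loop region of 16 bases, and 6 of the 7 seed bases of miR-210-3p were paired. The hairpin is rich in G and C (69.1% of its bases). In GENCODE release M21 for GRCm38, Mir210 is a miRNA gene of its own that overlaps no other annotated gene; the nearest gene, Rassf7, lies 2726 bp away. The deposited table gives names and no coordinates, and its build, mm9, differs from the one used for these positions.

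Values are given as CPM, which scales each library to a total of 1000000 miRNA reads. The libraries held 3164422 to 8063815 reads, so that 1 read was worth 0.124 to 0.316 CPM, and both arms had reads in all 12 libraries. In bulk tissue, fewer cells of a type and less RNA per cell cannot be told apart. Markers of several cell types differed between control skin and 360 mJ/cm2. The summed level of 7 epithelial arms, all detected in all libraries, was 8.12% to 9.49% of reads in control skin and 1.16% to 3.65% at 360 mJ/cm2, where all 7 fell. The sum was 2.81% to 8.87% at 90 mJ/cm2 and 4.11% to 9.52% at 180 mJ/cm2. At each of these doses miR-200a-3p, miR-141-3p and miR-429-3p fell and the other 4 arms did not pass. Most of the sum was miR-203-3p (67050 ± 5483 CPM, SD, n = 3, in control skin), so the share mainly follows that arm. The 4 myeloid arms summed to 457 to 622 CPM in control skin and 3353 to 4594 CPM at 360 mJ/cm2, where all 4 rose. Their sum was already above the control range at the lower doses. It was 842 to 2281 CPM at 90 mJ/cm2, where 2 of the 4 rose. At 180 mJ/cm2 it was 795 to 1597 CPM, and 3 of the 4 rose. Replicate 3 at 90 mJ/cm2 and replicate 1 at 180 mJ/cm2 stood apart from their groups in the epithelial share, at 2.81% and 4.11%, so values without both are also given.

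miR-210-3p, the guide arm, ranked 165th to 172nd of the 1519 arms in unirradiated skin and did not pass the test at any UVB dose. In the 3 control libraries it stood at 107, 103 and 97.0 CPM, from 859, 620 and 365 reads. At 90 mJ/cm2 the values were 96.6, 132 and 74.3 CPM. At 180 mJ/cm2 they were 95.2, 143 and 186 CPM. The control libraries lay close together, and each of these doses had libraries both above and below them. The levels at 360 mJ/cm2 were 64.3, 123 and 85.0 CPM, again on both sides of the controls. The order of the group means was 180 mJ/cm2 (141 ± 45.4 CPM, SD, n = 3), control (102 ± 4.81), 90 mJ/cm2 (101 ± 29.2) and 360 mJ/cm2 (90.7 ± 29.7), and no neighbours in that order differed beyond their spread. Over the series the arm ranked between 137th and 197th of the 1519 arms in each library.

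**Figure D1:**
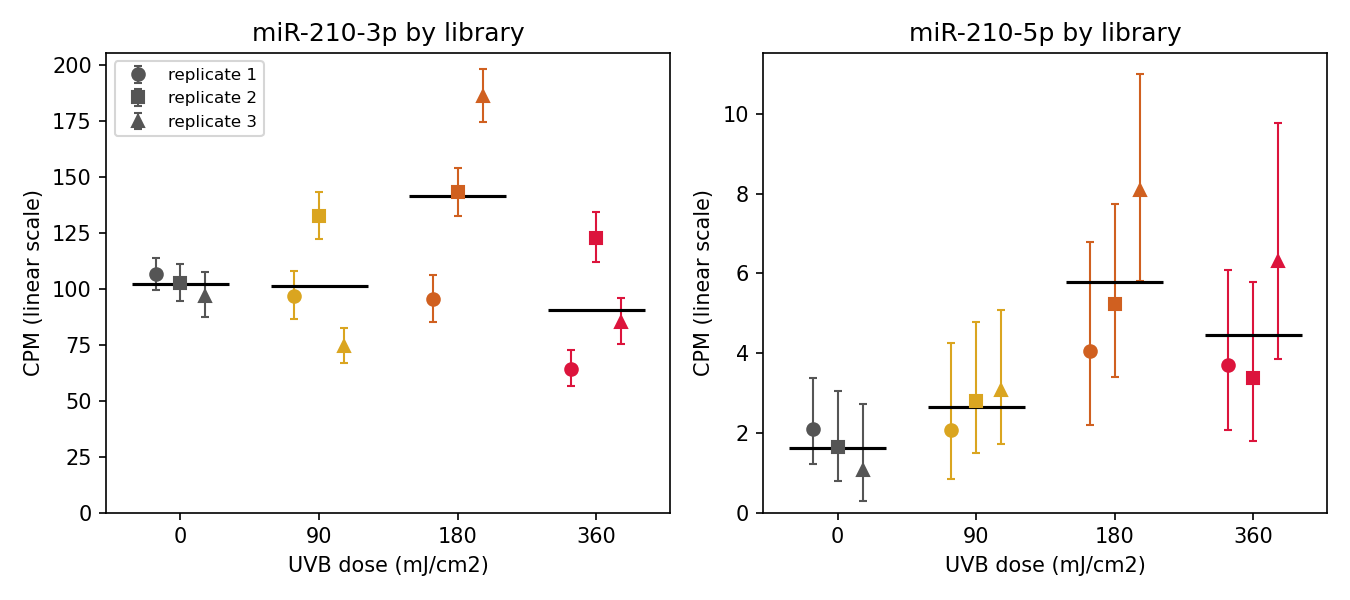
Level of miR-210-3p (left) and miR-210-5p (right) in each library, in CPM on linear scales, by UVB dose; points are libraries, bars on points are exact Poisson 95% intervals of the reads and horizontal lines are group means. The 3p values at each UVB dose overlap those of the controls, whereas every 5p value at 180 mJ/cm2 (4.04 to 8.10 CPM) and 360 mJ/cm2 (3.38 to 6.32 CPM) lies above the control range of 1.06 to 2.11 CPM.

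The comparison of each dose with unirradiated skin asks how irradiation alters miRNA levels in acute skin injury. It was made with limma on log2(CPM + 1) over the 590 arms that reached 1 CPM in 3 or more libraries, with Benjamini-Hochberg adjustment within each comparison and a threshold of 0.05; fold changes on this scale understate those of low arms. The log2 fold change of miR-210-3p was -0.05 ± 0.29 (SE; 95% interval -0.67 to 0.57) at 90 mJ/cm2, with an adjusted p of 0.91. At 180 mJ/cm2 it was 0.42 ± 0.29 (-0.20 to 1.03), with an adjusted p of 0.30. The value at 360 mJ/cm2 was -0.22 ± 0.29 (-0.83 to 0.40), with an adjusted p of 0.59. These intervals leave room for changes of the guide arm in either direction at each dose, so the missing call does not show that its level was the same. Of the arms tested, 25.6% passed at 90 mJ/cm2, 30.7% at 180 mJ/cm2 and 39.8% at 360 mJ/cm2. Single libraries of the 180 mJ/cm2 dose moved its value to 0.19 (without replicate 3) or 0.67 (without replicate 1), still without a call. The signs of the 2 negative values were not stable: they were 0.15 at 90 mJ/cm2 without replicate 3 of that dose and 0.0033 at 360 mJ/cm2 without replicate 1 of that dose, and both were positive (0.032 and 0.044) when library totals were taken without miR-21a-5p and miR-1a-3p, which moved the median of all arms at 360 mJ/cm2 by 0.20. Relative to the median of all arms the 3p value at 360 mJ/cm2 was -0.23, and it was -0.28 under TMM scaling and -0.17 under those reduced totals.

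Pooling the doses gave no call for the guide arm either. The mean of the 3 UVB doses differed from control by 0.05 ± 0.24 on the log2 scale (adjusted p = 0.89), in a comparison where 41.4% of arms passed. This value was -0.08 under TMM scaling, and it was also negative without replicate 2 at 90 mJ/cm2 (-0.022), replicate 3 at 180 mJ/cm2 (-0.025) or replicate 2 at 360 mJ/cm2 (-0.031). The F test over the 4 groups, which 40.2% of arms passed, gave an adjusted p of 0.31 for miR-210-3p. Between doses, its lowest unadjusted p was for 360 against 180 mJ/cm2, where the level fell by 0.63 on the log2 scale (95% interval -1.25 to -0.01) with an unadjusted p of 0.045 and an adjusted p of 0.21 in limma; that comparison called 4.07% of arms.

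The libraries of each irradiated group lay farther apart in their guide arm level than the control libraries did. The coefficient of variation of miR-210-3p was 4.71% among the 3 controls, 28.9% at 90 mJ/cm2, 32.1% at 180 mJ/cm2 and 32.7% at 360 mJ/cm2. These values describe 3 libraries per group, with no test. A spread that differs between groups was not particular to this arm, and it went in both directions. From control skin to 90 mJ/cm2, miR-203-3p went from 67050 ± 5483 to 52368 ± 26776 CPM (SD, n = 3). miR-26a-5p went from 43744 ± 16166 to 23144 ± 1835 CPM. Within each UVB dose, the library with the most miR-210-3p was also the one with the highest epithelial share. These libraries were replicate 2 at 90 mJ/cm2 (132 CPM; epithelial share 8.87%), replicate 3 at 180 mJ/cm2 (186 CPM; 9.52%) and replicate 2 at 360 mJ/cm2 (123 CPM; 3.65%). The libraries with the least miR-210-3p at 90 and 180 mJ/cm2 had the lowest epithelial shares of their doses, namely 74.3 CPM at 2.81% and 95.2 CPM at 4.11%. The pattern did not extend to all groups: at 360 mJ/cm2 the lowest level, 64.3 CPM, was in the library with 1.32% and not in that with 1.16%, and among the controls the order was the opposite. The part of the epithelial share in the guide arm's level was not tested. Replicate 3 at 180 mJ/cm2, highest for both arms, was also the library with the lowest skeletal muscle share, 8.20% of reads against 15.4% to 22.9% in the others.

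**Figure D2:**
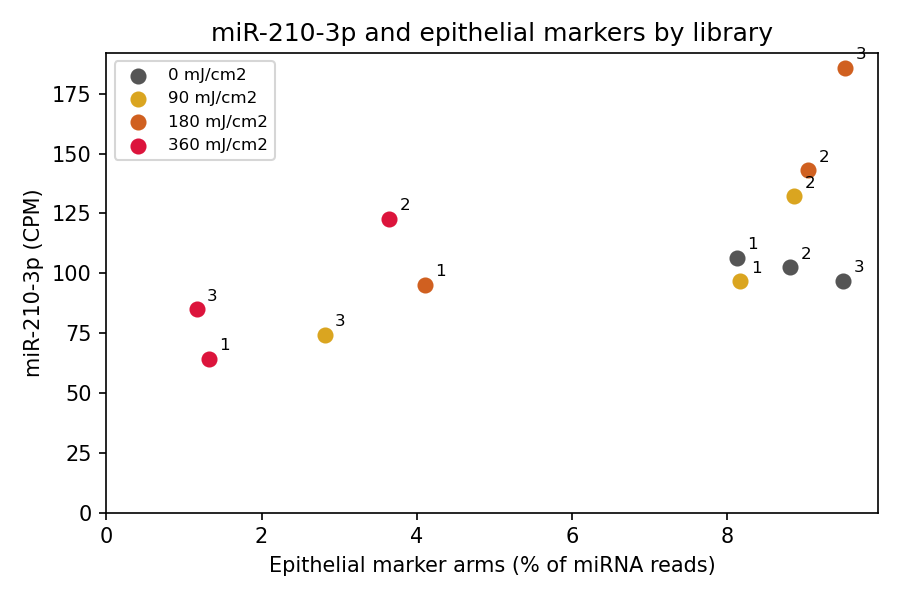
Level of miR-210-3p (CPM) against the summed share of 7 epithelial marker arms (% of miRNA reads) in each library, coloured by UVB dose and numbered by replicate. Within each of the 3 UVB doses the library farthest to the right is the highest; the 3 controls (97.0 to 107 CPM) run the other way.

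Without replicate 3 at 90 mJ/cm2 and replicate 1 at 180 mJ/cm2 together, an alternative chosen after seeing the data, miR-210-3p still did not pass: its log2 fold change was 0.15 (adjusted p = 0.78 in limma) at 90 mJ/cm2 and 0.67 (adjusted p = 0.089) at 180 mJ/cm2.

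By a rule of likeness, the Pearson correlation with miR-210-3p over the 12 libraries on log2(CPM + 1) among 337 arms with a mean of at least 10 CPM, the 4 arms most like it were miR-205-3p (r = 0.84), miR-200c-3p (0.79), miR-27b-3p (0.78) and miR-31-5p (0.73). The miR-205 hairpin is known for its expression in keratinocytes, miR-200c is an epithelial miRNA that represses Zeb factors, and miR-31 is known to rise in wounded and inflamed epidermis. The 4 least like it were miR-22-5p (-0.70), miR-218-5p (-0.58), miR-425-5p (-0.58) and miR-1a-3p (-0.54), the last a skeletal muscle miRNA. The values share libraries, totals and doses, and are a description.

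miR-210-5p, the passenger arm, was scarce in control skin and rose at the higher UVB doses. The control libraries held 2.11, 1.65 and 1.06 CPM, which were 17, 10 and 4 reads. At 90 mJ/cm2 the values were 2.07, 2.80 and 3.08 CPM, from 7, 13 and 15 reads. The lowest of these lay within the control range and the other 2 above it. At 180 mJ/cm2 they were 4.04, 5.24 and 8.10 CPM, from 14, 25 and 41 reads. The libraries at 360 mJ/cm2 held 3.70, 3.38 and 6.32 CPM, from 15, 13 and 20 reads. All 6 libraries at these 2 doses were above all 3 controls. Such separation between libraries, in either direction, was shared by 42.5% of tested arms at 180 mJ/cm2 and 49.3% at 360 mJ/cm2, and by 37.6% at 90 mJ/cm2.

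The group means of miR-210-5p ran from control (1.61 ± 0.524 CPM, SD, n = 3) through 90 mJ/cm2 (2.65 ± 0.522) and 360 mJ/cm2 (4.47 ± 1.61) to 180 mJ/cm2 (5.79 ± 2.09). In limma, the log2 fold change against control was 0.49 ± 0.30 (SE; 95% interval -0.15 to 1.14, adjusted p = 0.26) at 90 mJ/cm2. At 180 mJ/cm2 it was 1.36 ± 0.30 (0.71 to 2.00, adjusted p = 0.0055), a 2.56-fold rise of CPM + 1. At 360 mJ/cm2 it was 1.05 ± 0.30 (0.40 to 1.69, adjusted p = 0.012), a 2.07-fold rise. By p-value the arm ranked 45th of the 590 arms at 180 mJ/cm2 and 162nd at 360 mJ/cm2, so other arms had lower p-values at both doses. The call at 180 mJ/cm2 held when each of the 12 libraries was left out in turn, with adjusted p of at most 0.030. The call at 360 mJ/cm2 rested on replicate 3 of that dose, without which the log2 fold change was 0.82 with an adjusted p of 0.063 in limma. In edgeR's quasi-likelihood test on recovered reads, which adds no pseudocount of 1 CPM, the log2 fold changes were 1.70 (adjusted p = 0.0058) at 180 mJ/cm2 and 1.37 (adjusted p = 0.014) at 360 mJ/cm2.

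The rise of the 5p arm was also called in the tests over all doses. The mean of the 3 UVB doses was 0.97 ± 0.25 above control on the log2 scale (95% interval 0.44 to 1.49, adjusted p = 0.0059 in limma), and the F test over the 4 groups gave an adjusted p of 0.010. A straight line in dose rose by 1.06 ± 0.36 from 0 to 360 mJ/cm2 (adjusted p = 0.039), in a test that 30.0% of arms passed. That call was lost when any of 6 libraries was left out, each control, replicate 1 at 90 mJ/cm2, replicate 1 at 180 mJ/cm2 or replicate 3 at 360 mJ/cm2, with adjusted p of 0.051 to 0.105. Between irradiated groups no difference of miR-210-5p passed. From 90 to 180 mJ/cm2 the log2 difference was 0.86 ± 0.30 (0.22 to 1.51), with an unadjusted p of 0.012 and an adjusted p of 0.96, in a comparison where limma called 0.0% of arms; there 19 arms had an unadjusted p under 0.05, and edgeR and DESeq2 each called 0. From 90 to 360 mJ/cm2 the difference was 0.55 ± 0.30 (adjusted p = 0.25; 11.2% of arms called), and from 180 to 360 mJ/cm2 it was -0.31 ± 0.30 (adjusted p = 0.60).

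**Figure D3:**
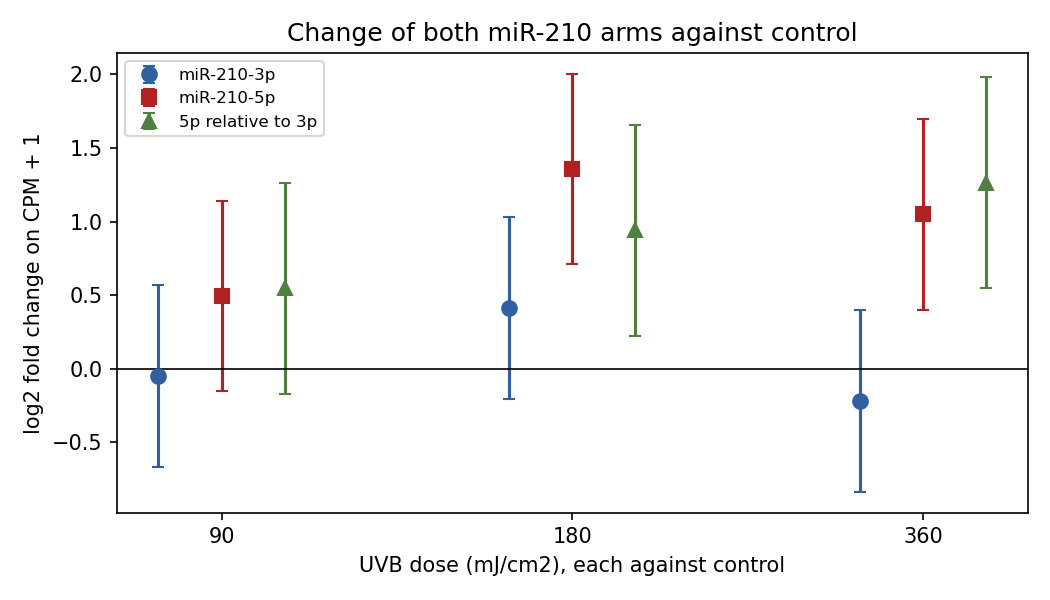
Log2 fold change of CPM + 1 against control at each UVB dose for miR-210-3p, miR-210-5p and the 5p arm relative to the 3p arm; points are limma estimates and bars 95% intervals. The 5p intervals at 180 mJ/cm2 (0.71 to 2.00) and 360 mJ/cm2 (0.40 to 1.69) lie above 0, and the 3p intervals include 0 at each dose.

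The arms most like miR-210-5p by the same rule, among 338 arms, were miR-542-3p (r = 0.85 over 12 libraries), miR-34c-5p (0.82), miR-126a-3p (0.82) and miR-34c-3p (0.81). miR-34c is a p53-induced miRNA, miR-126a marks endothelial cells and miR-542 lies in a cluster with miR-322. Those least like it were miR-181c-5p (-0.77), let-7d-3p (-0.76), let-7c-5p (-0.74) and let-7b-5p (-0.73). None of these 8 arms was among the 8 named for the guide arm, and the arms of the hairpin correlated with each other by r = 0.33 over the 12 libraries. These are descriptions over libraries that share doses and totals. The summed level of the 2 endothelial marker arms, miR-126a-3p among them, was 8303 to 8774 CPM in control skin, 16862 to 20385 CPM at 180 mJ/cm2 and 21891 to 25249 CPM at 360 mJ/cm2. Only 1 of the 2 rose at these doses, miR-126a-3p, which made up nearly all of the sum; miR-126a-5p did not pass at 180 mJ/cm2 (log2 0.22, adjusted p = 0.54 in limma) or 360 mJ/cm2 (log2 0.36, adjusted p = 0.25). Their part in the 5p result was not tested.

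Within the hairpin, the passenger arm's share of reads was higher in the irradiated libraries, although the tests of the arm ratio given below were fragile. The 5p arm made up 1.94%, 1.59% and 1.08% of miR-210 reads in the 3 control libraries. It made up 2.10%, 2.07% and 3.98% at 90 mJ/cm2 and 4.07%, 3.54% and 4.18% at 180 mJ/cm2. The shares at 360 mJ/cm2 were 5.43%, 2.68% and 6.92%. All 9 irradiated libraries lay above the 3 controls in this share; a separation of that kind, in either direction, was found in 12.7% of the 166 hairpins with both arms tested (21 hairpins). With the few reads of the 5p arm the exact binomial 95% intervals were wide, from 0.296% to 2.75% in control replicate 3 and from 4.28% to 10.5% in replicate 3 at 360 mJ/cm2; they cover counting error only. The mean share was 1.54% ± 0.430 (SD, n = 3) in control skin, 2.72% ± 1.09 at 90 mJ/cm2, 3.93% ± 0.343 at 180 mJ/cm2 and 5.01% ± 2.15 at 360 mJ/cm2. Expressed as a ratio, there were 67.9 ± 21.0 reads of miR-210-3p for each read of miR-210-5p in the controls and 22.4 ± 12.2 at 360 mJ/cm2. More reads came from the 3p arm than from the 5p arm in every library, the lowest ratio being 13.5. Adapter ligation favours some RNA ends, so these are ratios of reads and not of molecules.

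**Figure D4:**
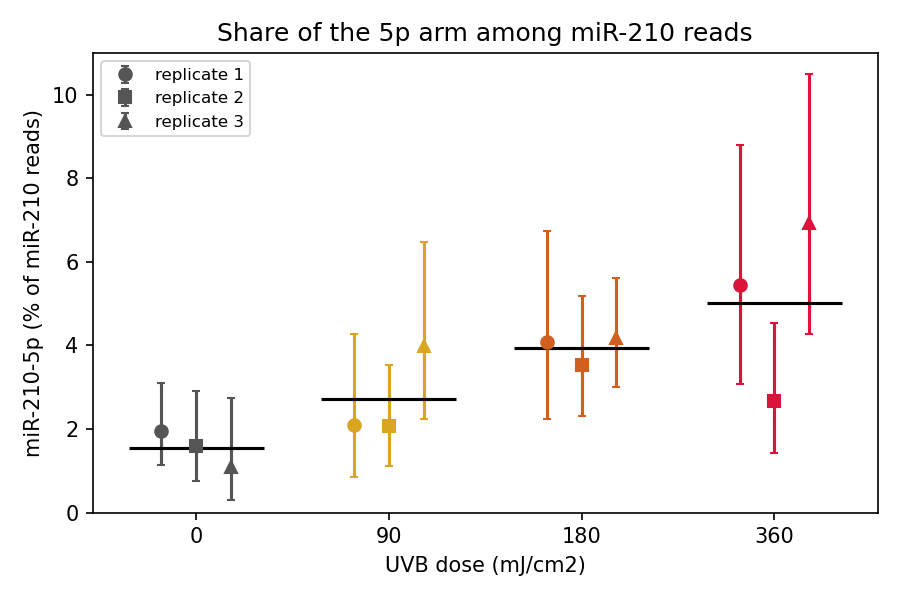
Share of miR-210-5p among the reads of both miR-210 arms (%), by UVB dose; points are libraries with exact binomial 95% intervals and horizontal lines are group means. The controls lie between 1.08% and 1.94%, and the irradiated libraries between 2.07% and 6.92%.

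An exact permutation test of the log2 ratio of both arms over the 4 groups, across all 15400 partitions of the 12 libraries, gave p = 0.041 (F = 4.62; the smallest p it allows is 6.5e-05). This result was fragile. It missed the threshold when any of 9 libraries was left out, namely each of the 3 controls, replicate 1 at 90 mJ/cm2, all 3 replicates at 180 mJ/cm2 and replicates 1 and 3 at 360 mJ/cm2, with exact p of up to 0.123, and with a pseudocount of 5 (exact p = 0.176).

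The same ratio was then compared dose by dose in limma over the 166 hairpins with both arms tested, a comparison added after seeing the data. The log2 ratio of 3p to 5p fell by 0.55 ± 0.34 at 90 mJ/cm2 (SE; adjusted p = 0.29), where 22.3% of hairpins passed. It fell by 0.94 ± 0.34 at 180 mJ/cm2 (adjusted p = 0.063; 19.3% of hairpins passed). At 360 mJ/cm2 it fell by 1.27 ± 0.34 (95% interval -1.98 to -0.55, adjusted p = 0.011; 23.5% of hairpins passed). The 360 mJ/cm2 call was lost without replicate 1 (adjusted p = 0.051) or replicate 3 (adjusted p = 0.057) of that dose. The 180 mJ/cm2 difference passed without replicate 3 at 90 mJ/cm2 (adjusted p = 0.048) or replicate 2 at 360 mJ/cm2 (adjusted p = 0.034), and with a pseudocount of 5 it shrank to -0.29 (adjusted p = 0.44).

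Set among the other hairpins, miR-210 was below the median in the share of reads from its less abundant arm. That arm held 3.23% of its CPM, against a median of 8.26%, and 60 of the 166 hairpins had a lower share. There was no common movement toward the less abundant arm: the median log2 change of that arm relative to the more abundant one was -0.07, -0.01 and -0.01 at 90, 180 and 360 mJ/cm2. At 360 mJ/cm2, 21 hairpins were called toward the less abundant arm and 18 toward the more abundant one. By the size of the move toward the less abundant arm, miR-210 ranked 33rd, 12th and 12th of the 166 hairpins at the 3 doses.

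The guide arm was also set beside 15 other arms named in the literature as responsive to hypoxia, all of which were tested. The list set no expected direction for any arm, so rises and falls are only counted, and a response to hypoxia was not tested. The calls went in both directions. At 90 mJ/cm2, 3 rose, 4 fell and 8 did not pass, a called share of 46.7% beside 25.6% of all arms; their median log2 fold change was -0.26, and that of all tested arms 0.04. At 180 mJ/cm2, 3 rose, 4 fell and 8 did not pass, 46.7% called beside 30.7% of all arms, with a median of 0.02 against 0.06. For 360 mJ/cm2, 4 rose, 4 fell and 7 did not pass, 53.3% called beside 39.8% of all arms, with a median of -0.15 against 0.02. Most arms of the list are abundant, and abundant arms were called more often. Under the filter of 10 CPM in 3 libraries, 353 arms were tested. Of these, 67 rose and 68 fell at 90 mJ/cm2, 80 and 70 at 180 mJ/cm2, and 76 and 101 at 360 mJ/cm2. The shares of all arms therefore understate the background for such a list. The part of abundance in the list's counts was not tested. The count of calls at 90 mJ/cm2 dropped from 7 to as few as 2 when control replicate 1 or replicate 3 of that dose was left out, and at 180 mJ/cm2 from 7 to 3 without replicate 3 of that dose. At 360 mJ/cm2, 7 of the 8 calls held in all 12 such repeats.

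Those that rose included miR-21a-5p, a miRNA of inflammation and proliferation, which went from 22599 ± 3726 CPM (SD, n = 3) in control skin to 183007 ± 8370 CPM at 360 mJ/cm2. Its log2 fold change there was 3.03 (adjusted p = 1.2e-06 in limma). miR-155-5p, a miRNA of activated leukocytes, rose at 360 mJ/cm2 from 66.7 ± 15.2 to 157 ± 2.37 CPM (log2 1.24, adjusted p = 0.0010). miR-322-5p, the mouse form of human miR-424 and known to repress Cul2 in endothelial cells, rose from 35.2 ± 4.24 to 107 ± 9.50 CPM (log2 1.58, adjusted p = 5.8e-05). miR-199a-5p, a fibroblast miRNA reported to repress Hif1a, had a log2 fold change of 0.72 (adjusted p = 0.017), but 3 of the 12 repeats lost that call, those without control replicate 3 or without replicate 1 or 2 at 360 mJ/cm2.

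Those that fell at 360 mJ/cm2 were miR-181b-5p, a repressor of inflammatory signalling in endothelium (784 ± 129 to 213 ± 44.0 CPM, log2 -1.88, adjusted p = 9.2e-05 in limma), miR-23a-3p (log2 -1.07), miR-107-3p (-0.99) and miR-23b-3p (-0.89). miR-23a and miR-23b come from paralogous clusters with miR-27 and miR-24, whose arms on the list, miR-27a-3p, miR-27b-3p and miR-24-3p, did not pass at any dose. Among these, miR-24-3p only just missed the threshold. Its log2 fold change was -0.50 at 90 mJ/cm2 (adjusted p = 0.053 in limma) and -0.46 at 360 mJ/cm2 (adjusted p = 0.052). miR-103-3p, which shares its seed with miR-107-3p, did not pass at any dose, and neither did miR-20b-5p. miR-26a-5p and miR-26b-5p were called lower at 90 and 180 mJ/cm2 and did not pass at 360 mJ/cm2; these calls were lost without either of control replicates 1 and 2, among other libraries. The list mixes miRNAs with other inducers in skin. Leukocyte and epithelial markers differed between control skin and 360 mJ/cm2, and some of them at the lower doses, as given above. Their part in these counts was not tested.

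**Figure D5:**
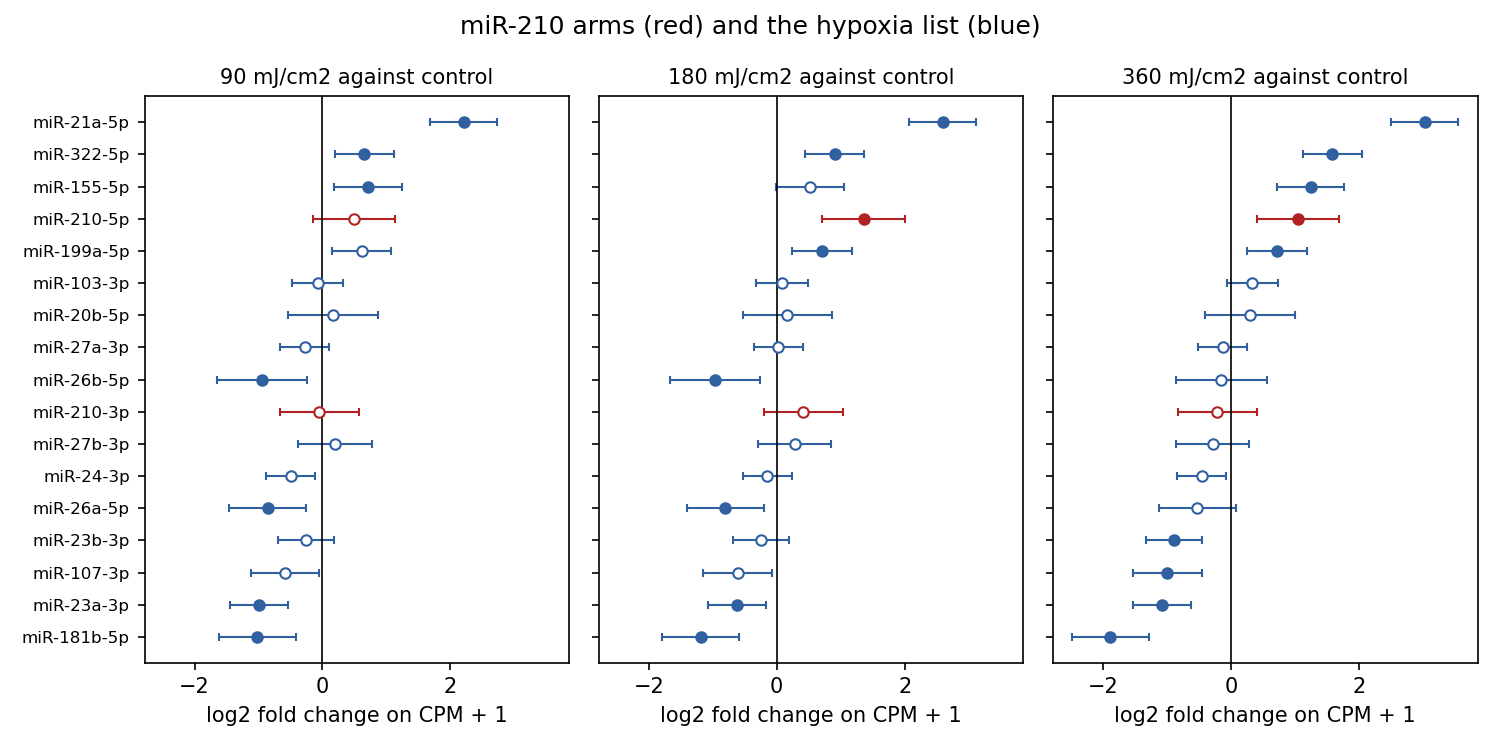
Log2 fold change of CPM + 1 against control for both miR-210 arms (red) and the 15 arms of the hypoxia list (blue) at each UVB dose, ordered by the change at 360 mJ/cm2; bars are 95% intervals and filled points passed an adjusted p of 0.05 in limma. miR-210-3p is unfilled at each dose, miR-210-5p is filled at 180 and 360 mJ/cm2, and the list has filled points on both sides of 0.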

How the data were processed

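The authors deposited CPM values for 1519 mature miRNA arms in 12 libraries, each summing to 1000000. Per the labels' protocols, frozen skin was extracted with Trizol, made into NEBNext small RNA libraries and run on an Illumina NextSeq; adapter ligation favours some RNA ends, so tests compare an arm, or the ratio of a hairpin's arms, across libraries, and levels of different arms are levels of reads. The submitters' processing notes name build mm9; the aligner, counter and miRBase release were not given in the sources used here. In every library 100% of values were whole multiples of 1 read (tolerance 0.01), which gave the reads per library.

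Groups came from the sample titles. Differences were tested with limma 3.58.1 (R 4.3.3, eBayes with trend) on log2(CPM + 1), a pseudocount of 1, with 1 mean per group, no replicate term and 1 shared spread. Alternatives were pseudocounts of 0.25 and 5, no filter, a filter of 10 CPM, TMM factors, totals without 2 abundant arms, a replicate block, each library left out, and edgeR 4.0.16 and DESeq2 1.42.0 on the recovered reads; edgeR called 172, 199 and 254 arms at 90, 180 and 360 mJ/cm2. Replicates of a dose differed far beyond sampling noise (chi-square over degrees of freedom of 130 to 630). The limma fit was also run on simulated reads with known changes at 360 mJ/cm2. These reads were drawn for independent libraries with the same dispersion for every arm. That run therefore checks the code of the fit and gives no support to the calls made here. Folding used RNAfold 2.7.2. Intervals for reads and shares cover counting error only, since reads carried no molecular identifiers.

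The named arms were both miR-210 arms, the hypoxia list, and the 4 most and 4 least correlated arms of each. The members and lists were chosen with earlier results of these data known.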

Additional observations from a re-analysis of the deposited data

How the results depend on the processing

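The call of miR-210-5p at 180 mJ/cm2 kept its direction and its side of the threshold in all 12 repeats without 1 library (log2 1.12 to 1.55) and in all 9 other alternatives (0.69 with a pseudocount of 5 to 1.72 in DESeq2). At 360 mJ/cm2 it ran from 0.82 to 1.19 without 1 library. Its linear term ran from 0.87 to 1.33 without 1 library, and missed the threshold with no filter (1.06, adjusted p = 0.079), with the replicate block (1.06, adjusted p = 0.050) and without the pair of libraries named above (1.08, adjusted p = 0.051). miR-210-5p has no value under the 10 CPM filter. miR-210-3p was called in no alternative. Its log2 value without 1 library ran from -0.26 to 0.15 at 90 mJ/cm2, 0.19 to 0.67 at 180 mJ/cm2, -0.46 to 0.0033 at 360 mJ/cm2, -0.89 to -0.41 for 360 against 180 mJ/cm2, -0.41 to 0.055 for 360 against 90 mJ/cm2, -0.031 to 0.13 for the mean dose and -0.31 to 0.13 for the linear term. Totals without miR-21a-5p and miR-1a-3p gave 0.032, 0.044, 0.011 (360 against 90 mJ/cm2) and 0.093 (linear term); TMM gave -0.077 for the mean dose; leaving out the pair of libraries gave 0.15 at 90 mJ/cm2 and 0.20 for the mean dose. The arm ratio gave an exact permutation p of 0.0040 to 0.123 without 1 library and 0.176 with a pseudocount of 5. Its dose contrasts in limma lost the 360 mJ/cm2 call with a pseudocount of 5 (adjusted p = 0.053) and gained the 180 mJ/cm2 call with a pseudocount of 0.25 (0.042) or TMM (0.048); at 180 mJ/cm2 a pseudocount of 5 gave -0.29 (adjusted p = 0.44) against -0.94. Calls on the hypoxia list numbered 2 to 8 at 90 mJ/cm2 and 3 to 7 at 180 mJ/cm2 without 1 library; with no filter they numbered 3 at each of these doses, with reduced totals 4 at 180 mJ/cm2 and without the pair of libraries 2 at 90 mJ/cm2. Calls over all arms ran without 1 library from 50 to 175 at 90 mJ/cm2 (main 151; 50 without control replicate 1), 90 to 196 at 180 mJ/cm2 (main 181; 90 without control replicate 1), 0 to 88 for 360 against 90 mJ/cm2 (main 66) and 0 to 45 for 360 against 180 mJ/cm2 (main 24; 0 in edgeR, 64 in DESeq2). The cause of these differences was not tested, and each repeat without 1 library also held fewer libraries. Replicate numbers were not treated as pairs in the main fit. Of 18 same-numbered pairs of libraries, 6 had a correlation of deviations over 0.1 (-0.22 to 0.24). The mean correlation was 0.0077, against -0.0039 for other pairs, and these values cannot settle whether the numbers pair the samples. The replicate block changed no other call of either arm. Depth limits the 5p arm most, at 4 to 41 reads per library.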
